A study of Homo sapiens with 20 samples.

Results

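GENCODE release 44 lists 2261 long non-coding RNA (lncRNA) genes whose name is LINC followed by a number, and 591 of them reached a mean of 0.25 CPM or more (counts scaled to library size) over the 20 samples of the NGP nutlin dataset. These 591 gene records are called the LINC members below. They carry 589 distinct names, since LINC01115 and LINC01238 each stand for 2 records. Transcripts of 2205 of the 2261 genes were quantified, and 585 of the 591 members were tested within a table of 27697 mRNAs and lncRNAs that had at least 1 count in each condition. The other 6 members had no count in any vehicle sample and are described separately. On either side of the limit stood LINC01352 and LINC01756 with 0.25005 and 0.25152 CPM, and LINC01968 and LINC02635 with 0.24959 CPM each.

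The samples were cultures of NGP, a human neuroblastoma cell line, in a design of 10 replicates treated with nutlin-3 (8 µM of the racemic mixture) against 10 that received the ethanol vehicle. Both groups were the same unmodified line, so the treatment was the labelled difference and all results are for a single line. Gene coordinates are on GRCh38, from GENCODE. Poly(A) RNA was sequenced as stranded paired-end reads. The vehicle samples held 14455477 to 19532971 estimated read pairs each and the nutlin samples 15078052 to 17442896.

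The libraries matched their labels. MDM2, whose product nutlin-3 binds, rose from a mean of 244.9 ± 33.2 to 5564 ± 382 CPM (SD, n = 10 each), with no overlap between the groups. All 10 markers of sympathoadrenal neuroblastoma cells reached 1 TPM, a level per transcript length and per library, in both groups. Of 9 markers of blood, epithelial, endothelial, stromal and liver cells, 1 reached 1 TPM in vehicle and 2 in nutlin, the highest with means of 2.40 and 8.15 TPM. The first principal component held 79.1% of the variance and separated the conditions. The scaling factors of the trimmed mean of M values (TMM) did not overlap either, with 0.879 to 0.973 in vehicle and 1.01 to 1.10 in nutlin.

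The compound nutlin-3 occupies a binding pocket of the ubiquitin ligase MDM2. A lncRNA named LINC is by convention one that lies between protein-coding genes and has received no name after a function or a neighbour. Such transcripts are spliced and polyadenylated like mRNAs, tend to be scarce and restricted to few tissues, and some act on the genes next to them, which is why their position beside responding mRNAs is given.

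RefSeq promoter windows (GRCh38.p14) were found for 381 of the 585 members tested, each with 250 bases before and 50 after the annotated start. Windows of the members had a median GC content of 52.3%, against 63.3% for the mRNAs tested, and a median of 7 CpG dinucleotides against 23. Shown here are LINC02051 (chr3:186476233-186476532, plus strand), one of the largest rises, with 1 CpG, LINC01686 (chr1:182614890-182615189, plus strand), which rose beside RGS16 and has 26 CpG, LINC00682 (chr4:41882562-41882861, minus strand), the most abundant member to fall by more than 1 on the log2 scale, with 34% GC, and LINC01224 (chr19:23416025-23416324, minus strand), the steepest fall. Capitals mark the CpG dinucleotides.
LINC02051: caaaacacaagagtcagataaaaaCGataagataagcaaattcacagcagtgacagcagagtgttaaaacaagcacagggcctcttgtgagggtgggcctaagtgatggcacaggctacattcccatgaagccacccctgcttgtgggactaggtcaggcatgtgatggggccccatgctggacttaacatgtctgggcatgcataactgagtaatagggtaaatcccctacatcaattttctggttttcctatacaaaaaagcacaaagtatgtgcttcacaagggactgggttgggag
LINC01686: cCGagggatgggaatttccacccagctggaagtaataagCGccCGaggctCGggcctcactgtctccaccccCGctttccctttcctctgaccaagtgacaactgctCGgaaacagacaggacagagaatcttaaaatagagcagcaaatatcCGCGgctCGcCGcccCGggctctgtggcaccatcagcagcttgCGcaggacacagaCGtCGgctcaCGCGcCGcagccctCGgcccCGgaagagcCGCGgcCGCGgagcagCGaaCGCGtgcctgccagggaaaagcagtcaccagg
LINC00682: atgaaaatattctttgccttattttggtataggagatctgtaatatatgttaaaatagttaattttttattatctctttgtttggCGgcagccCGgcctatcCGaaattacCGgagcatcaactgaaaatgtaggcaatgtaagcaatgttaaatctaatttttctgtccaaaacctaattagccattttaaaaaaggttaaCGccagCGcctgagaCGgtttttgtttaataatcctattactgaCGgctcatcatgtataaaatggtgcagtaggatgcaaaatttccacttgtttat
LINC01224: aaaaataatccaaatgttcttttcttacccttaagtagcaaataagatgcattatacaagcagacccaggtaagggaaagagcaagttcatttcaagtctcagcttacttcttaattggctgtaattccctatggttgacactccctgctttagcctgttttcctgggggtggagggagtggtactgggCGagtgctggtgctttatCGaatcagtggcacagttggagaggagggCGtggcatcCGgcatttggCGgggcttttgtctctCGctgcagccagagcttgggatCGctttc
LINC01686 has the most CpG of the 4 and LINC02051 the fewest. RefSeq starts of LINC02051, LINC00682 and LINC01686 lay 244, 344 and 114 bases from the GENCODE starts, so these 3 windows are for the RefSeq models. LINC02303 and LINC01376 had no window.

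Far more LINC members were higher than lower after nutlin. By edgeR's quasi-likelihood test with Benjamini-Hochberg adjustment over all 27697 genes, 334 of the 585 members were significantly differentially expressed (SDE) upward at 5% FDR, 42 were SDE downward and 209 did not pass. Over all genes tested, 32.3% were SDE up and 26.5% SDE down, so 57.1% up among the members stood above this background and 7.18% down stood below it. Unlike the members, this background had no CPM limit. The other 4302 lncRNAs with a mean of 0.25 CPM or more were SDE up in 46% and SDE down in 11.9% of cases, and the mRNAs tested in 32.4% and 38.5%. At the same limit of 0.25 CPM, the mRNAs were SDE up in 33.6% and SDE down in 45% of cases. The median log2 fold change (LFC, nutlin against vehicle) of the members was 0.66, with quartiles of 0.19 and 1.10. It was 0.40 for the other lncRNAs, -0.01 for the mRNAs tested, -0.08 for the mRNAs at 0.25 CPM or more and 0.19 for all genes. With the 6 untested members placed at the lower bound of their change, the median was 0.67. In bulk RNA, fewer cells that make a transcript and less RNA per cell cannot be told apart.

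Large changes were nearly all upward. A rise with an LFC of 1 or more was seen for 172 members (29.4%, against a background of 16.2% over all genes and 20.8% of the other lncRNAs), and a fall with an LFC of -1 or less for 11 (1.88%, against 5.81% and 3.91%). All 10 nutlin samples lay above all 10 vehicle samples for 127 members (21.7%, background 12.2%) and below them for 9 (1.54%, background 16.6%). Of the other lncRNAs at 0.25 CPM or more, 16% were above in this way and 3.51% below. Of the mRNAs at that limit, which the background over all genes did not have, 16.9% were above and 30.3% below. An LFC of 2 or more was reached by 57 members, of which 42 had a vehicle mean below 0.25 CPM. The filter bears on this split, since 105 members met the 0.25 CPM limit in nutlin only and 88 of these were SDE up, while 11 met it in vehicle only. Among the 469 members at 0.25 CPM or more in both conditions, 246 were SDE up and 36 SDE down. Like counts for other genes were not taken at an LFC of 2 or with the limit in both conditions.

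The split of the calls depended on the scaling. With TMM factors over mRNAs and lncRNAs together, 88.8% of the members called were up. With TMM factors from the lncRNAs alone, which lowered the LFC of lncRNAs by a median of 0.41, 182 members were SDE up and 100 SDE down, so that 64.5% of the calls were up. With library totals and no TMM factor, which raised the LFC of all genes by a median of 0.19, 402 were SDE up and 24 SDE down. Upward calls outnumbered downward calls under every scaling tried.

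**Figure D1:**
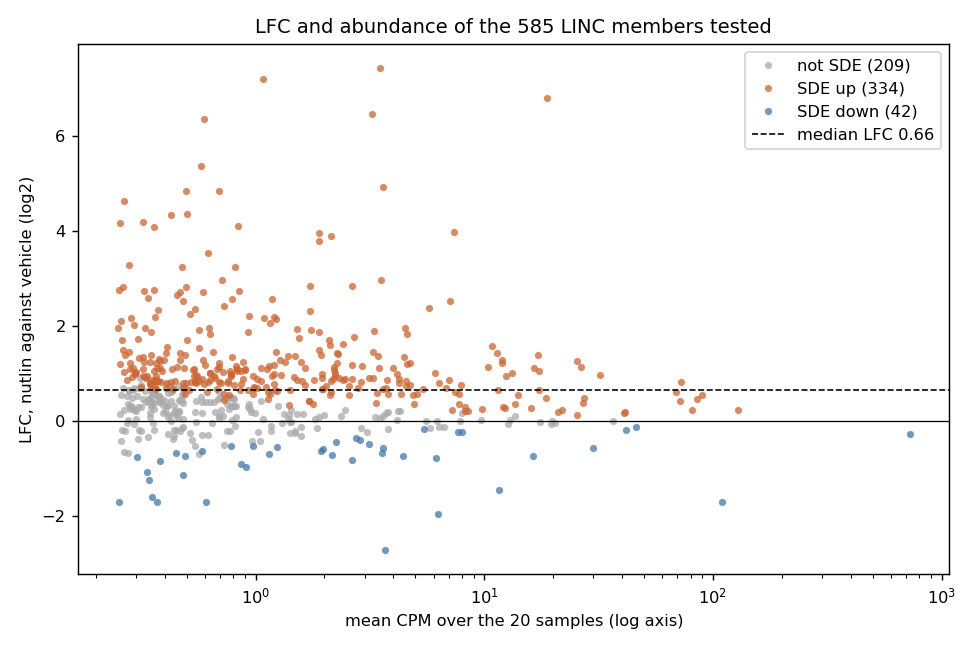
LFC (log2, nutlin against vehicle) of each of the 585 LINC members tested against its mean CPM over the 20 samples on a log axis, coloured by call at 5% FDR, with the median LFC of 0.66 as a dashed line. The points above 0 called SDE (334) far outnumber those below (42), and the members with the largest LFC have a mean below 10 CPM, apart from LINC01376 at a higher level.

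Most LINC members were scarce. Their median level was 0.861 TPM (summed over transcripts, mean of 20 samples), against 1.38 TPM for the other lncRNAs and 10.2 TPM for the mRNAs at 0.25 CPM or more. A mean below 1 CPM was found for 338 members (57.8%), and 47 reached 10 TPM. They had a median of 4 exons, and 45 had a single exon. The CPM of the members summed to 2811 ± 36.0 in vehicle (range 2753 to 2878) and to 3312 ± 66.5 in nutlin (range 3195 to 3426, SD, n = 10 each). The 2 ranges did not overlap with TMM factors over mRNAs and lncRNAs together. The median shift in LFC was -0.41 with TMM factors from the lncRNAs alone and 0.19 with library totals. Sums were not taken under these other scalings. The 8 most abundant members held 56.3% of the summed TPM in vehicle and 45.2% in nutlin.

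The share of members called was higher in both directions where counts were higher. Of the 338 members below 1 CPM, 49.4% were SDE up and 4.73% SDE down, with a median LFC of 0.69. Of the 147 members from 1 to 4 CPM, 67.3% were SDE up and 8.84% SDE down. Of the 35 members at 16 CPM or more, 24 (68.6%) were SDE up and 6 (17.1%) SDE down, and their median LFC was 0.24. Of the mRNAs, 48.9% were SDE up below 1 CPM, 51.0% from 1 to 4 CPM and 25.01% at 16 CPM or more, while the share SDE down went from 7.5% in the lowest class to 61.1% in the highest. In the lowest class the members and the mRNAs were thus called up at like shares (49.4% and 48.9%). The other lncRNAs were also called more often at higher counts. Below 1 CPM 40.1% of them were SDE up and 6.29% SDE down, and at 16 CPM or more 60.5% and 21.4%.

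**Figure D2:**
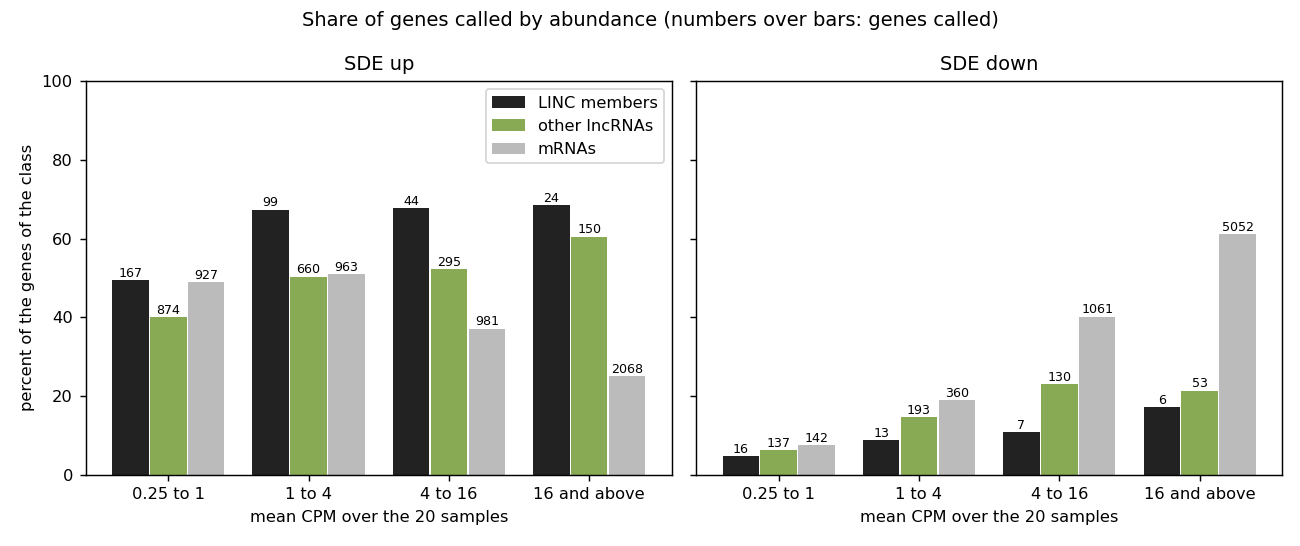
Percent of genes SDE up (left) and SDE down (right) at 5% FDR in 4 classes of mean CPM, for the LINC members, the other lncRNAs and the mRNAs, with the number of genes called over each bar. The share up among members is 49.4% below 1 CPM and 68.6% at 16 CPM or more. In the same classes 40.1% and 60.5% of the other lncRNAs and 48.9% and 25.01% of the mRNAs are up.

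The strongest rises took members from near zero to a few CPM. LINC02303 (chr14:45706250-45715952, minus strand, intergenic) had 0, 0 and 0.133 CPM as the lowest, median and highest of the vehicle samples and 4.58, 7.21 and 8.79 CPM in nutlin. It had no count in 6 vehicle samples and was well above all of them in every nutlin sample, with an LFC of 7.42 (SE 0.26, edgeR adjusted p = 5.82e-21). LINC02051 (chr3:186476727-186478370) had a single count over all vehicle samples and 336 over the nutlin samples, which spread from 1.57 to 3.01 CPM with a median of 2.05. Its ratio was 328 with a 95% counting interval of 58.4 to 12974, so that its size is poorly known although the groups did not overlap.

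LINC01376 was the most abundant of the strong responders. This gene (chr2:18986451-19348067, minus strand, 8 exons) had 0.120, 0.321 and 0.812 CPM as the lowest, median and highest vehicle values and 23.0, 39.5 and 46.3 CPM in nutlin, and no sample of one group came near the other. Its LFC was 6.80 (SE 0.17, edgeR adjusted p = 2.30e-24). LINC01054 (chr13:114329559-114333948) went from between 0 and 0.134 CPM to between 4.68 and 8.88 CPM, with an LFC of 6.45. It overlaps CHAMP1, a gene for chromosome alignment, on the opposite strand. CHAMP1 fell slightly, with an LFC of -0.23, and reads of the 2 strands cannot be told apart unless strand was used, which the sources do not state.

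The remaining 4 of the 8 leading rises at a mean of 1 CPM or more were between 3.89 and 4.92 on the log2 scale. Below that level several members had an LFC in or above this range, the first of them LINC01629 with 6.35 and LINC02746 with 5.37. LINC02846 (chr9:136107808-136109424) had between 0 and 0.406 CPM in vehicle and between 5.06 and 8.17 CPM in nutlin, for an LFC of 4.92. LINC00273, a single-exon gene (chr16:34158585-34160036), had 0.284 to 1.54 CPM in vehicle and 8.51 to 20.2 CPM in nutlin, for an LFC of 3.97. LINC01583 and LINC00824 had an LFC of 3.95 and 3.89 and stayed below 1 CPM in every vehicle sample and above 2 CPM in every nutlin sample. In LINC02846, LINC00273, LINC01583 and LINC00824 the groups were fully apart, and all were SDE with an edgeR adjusted p of 6.79e-15 or lower.

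The 6 members without a count in any vehicle sample had counts in all 10 nutlin samples. LINC00469 (chr17:73749270-73828520) had 27 to 41 counts per nutlin sample, or 1.85 to 2.69 CPM with a median of 2.35. Taking 3 counts over the whole vehicle group as the floor, its level was at least 117-fold higher after nutlin. LINC02571, LINC01451, LINC01707 and LINC01173 had nutlin means of 1.35, 1.03, 0.990 and 0.838 CPM and were at least 68.4-fold, 52.1-fold, 50.3-fold and 42.6-fold higher. LINC02555 was the least even, with 1 to 17 counts per nutlin sample, and at least 25.95-fold higher. All 6 were SDE, with an edgeR adjusted p of 3.14e-07 or lower, once genes with at least 1 count over the 20 samples were admitted to the fit. That fit was added after the data were seen, and these genes could pass the limit only through the nutlin group.

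**Figure D3:**
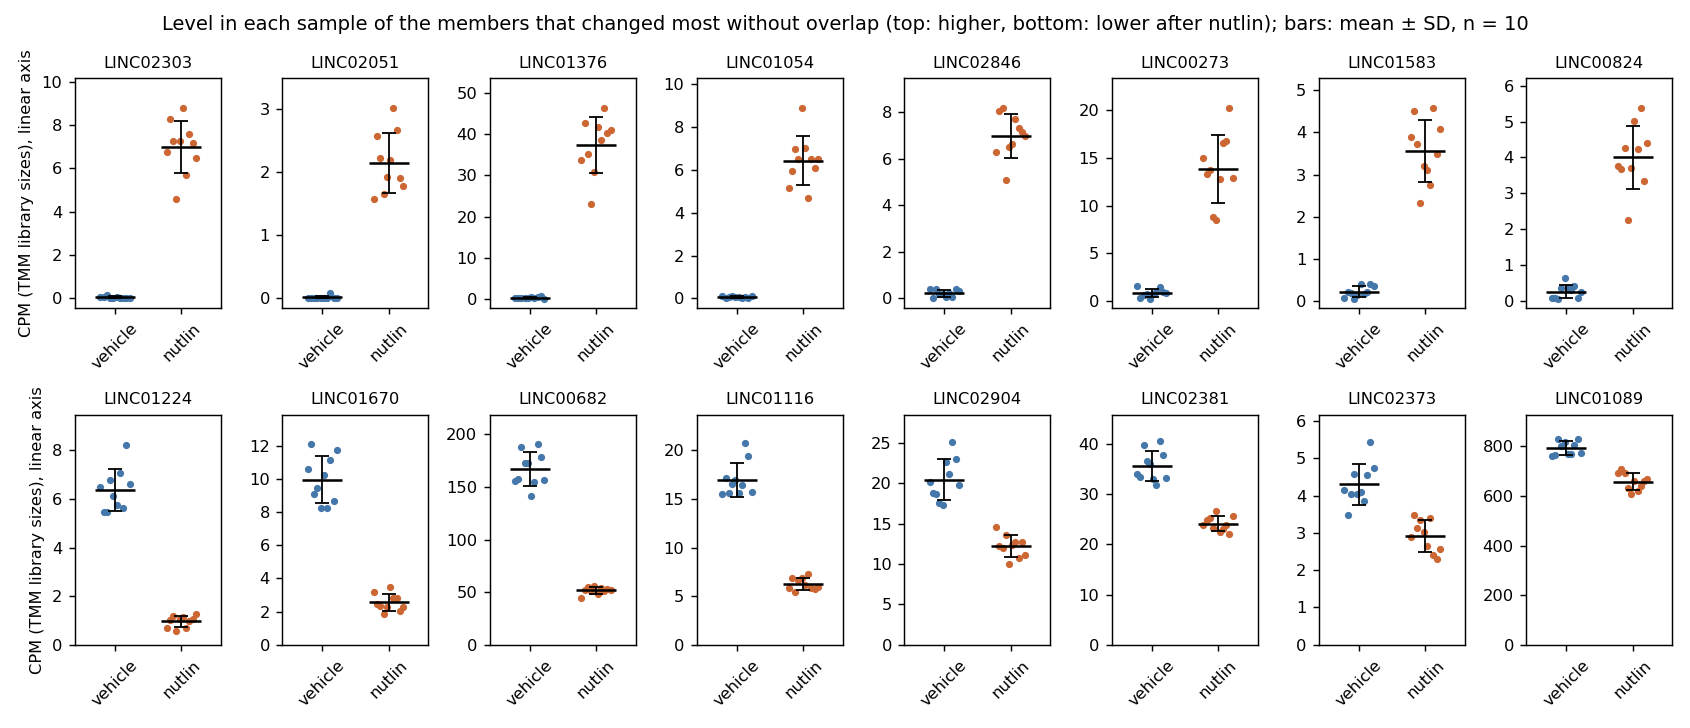
CPM (TMM library sizes, linear axes) in each of the 10 vehicle and 10 nutlin samples for the 8 members with the largest rise and the 8 with the largest fall among SDE members at 1 CPM or more whose groups did not overlap, with mean ± SD as bars. In the upper row the vehicle samples lie near 0 and LINC01376 reaches 46.3 CPM in nutlin, while in the lower row LINC00682 drops from a median of 165 to 52.2 CPM and LINC01089 from 788 to 661 CPM.

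Few members fell, and of those at 1 CPM or more only 8 did so without overlap of the groups. LINC01224 (chr19:23399097-23416075, minus strand) had 5.45, 6.31 and 8.21 CPM as the lowest, median and highest vehicle values and 0.547, 1.04 and 1.25 CPM in nutlin. All nutlin values were far below the lowest vehicle value, and the LFC was -2.71 (SE 0.12, edgeR adjusted p = 6.09e-18). Its nearest mRNA, ZNF91, a KRAB zinc-finger gene 20604 bases away, moved the other way, with an LFC of 0.38.

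LINC00682 was the large change among abundant members. It lies on chromosome 4 (chr4:41872741-41882955) and had 141, 165 and 191 CPM as the lowest, median and highest vehicle values against 44.4, 52.2 and 56.0 CPM in nutlin. Every nutlin sample was far below the lowest vehicle value, with an LFC of -1.69 (SE 0.050, edgeR adjusted p = 1.73e-22). Its nearest mRNA start, TMEM33 at 52174 bases, had an LFC of -0.39.

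LINC01116, a gene on chromosome 2 studied in several tumour types, had 15.5 to 20.7 CPM in vehicle and 5.47 to 7.25 CPM in nutlin, for an LFC of -1.44 (SE 0.068, edgeR adjusted p = 1.34e-17). LINC01670 fell with an LFC of -1.95, but 97.6% of the 31-base words of its transcripts also occur in transcripts of other genes, so that its counts may belong elsewhere. LINC02381, LINC02904 and LINC02373 fell more weakly, with an LFC of -0.56, -0.74 and -0.56. LINC02381 overlaps SMUG1 on the opposite strand and lies beside the HOXC cluster of homeobox genes, whose genes were looked up after the data were seen. HOXC4, HOXC5, HOXC6 and HOXC9 were SDE down, with an LFC of -0.84, -0.74, -0.37 and -0.56, HOXC13 was SDE up, with an LFC of 2.08, and HOXC8, HOXC10 and HOXC11 did not pass.

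Of the 8 most abundant members, LINC00682 had the largest change, and the other 7 had an LFC between -0.27 and 0.83. LINC01089 stood first with a mean of 827 TPM, and LINC02790 followed with 169.8 TPM. LINC01089 had 763 to 831 CPM in vehicle and 610.1 to 711 CPM in nutlin, groups that did not overlap, and an LFC of -0.27 (SE 0.033, edgeR adjusted p = 2.64e-08). With library totals and no TMM factor its LFC was -0.08 and it no longer passed (edgeR adjusted p = 0.0539). It overlaps RHOF on the same strand, starts 103 bases from the histone methyltransferase gene SETD1B in a head-to-head arrangement, and shares 56.8% of its 31-base words with other genes. SETD1B had a like LFC of -0.24.

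LINC02790 and LINC02607 lie on the same stretch of chromosome 1 and had an LFC of 0.62 and 0.24. LINC02790 did not overlap between groups (50.4 to 60.1 CPM in vehicle, 74.1 to 100.4 CPM in nutlin), while LINC02607 did, and with lncRNA-only scaling the LFC of LINC02607 turned to -0.18. LINC02985 and LINC02268 rose with an LFC of 0.55 and 0.83 and without overlap. With lncRNA-only scaling the LFC of LINC02985 was 0.12 and it no longer passed (edgeR adjusted p = 0.0834). LINC01976, the seventh by level with 48.1 TPM, had 10.8 to 15.8 CPM in vehicle and 9.97 to 18.8 CPM in nutlin and an LFC of 0.02 (SE 0.096, edgeR adjusted p = 0.876). It was called in opposite directions under other scalings, with an LFC of -0.41 (edgeR adjusted p = 0.000252) with lncRNAs only and 0.21 (edgeR adjusted p = 0.0442) with library totals. LINC01410 had an LFC of 0.24, which turned to -0.19 with lncRNA-only scaling, and shares 50.8% of its words with other genes.

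The word intergenic held for most members but not for all. Of the 585, 455 (77.8%) overlapped no mRNA gene and were neither divergent from one nor close downstream of one. Another 52 lay within 10000 bases downstream of an mRNA gene on the same strand. A further 37 overlapped an mRNA gene on the other strand, 26 on the same strand, and 15 started within 1000 bases of an mRNA start in divergent orientation. The median gap to the nearest mRNA gene was 25310 bases. Among the other lncRNAs 23.3% were intergenic by the same rule and 48.7% overlapped an mRNA gene on the other strand.

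Members SDE up outnumbered those SDE down in each position class. SDE up were 259 of the 455 intergenic members (56.9%), 28 of the 52 downstream members (53.8%), 24 of the 37 antisense members (64.9%), 16 of the 26 same-strand members (61.5%) and 7 of the 15 divergent members (46.7%). SDE down were 32, 5, 3, 2 and 0 of them. LINC01089, which is SDE down and also divergent from SETD1B, was counted in the same-strand class. Of the other lncRNAs in the same classes, 54.9%, 45.8%, 44%, 37.6% and 48.8% were SDE up, so that the intergenic members were near their class and the divergent members not above it. The median LFC was highest for the intergenic members, at 0.69, and lowest for the divergent ones, at 0.30. SDE up were 25 of the 45 single-exon members (55.6%) and 247 of the 435 with 3 or more exons (56.8%). Of the other lncRNAs, 42.6% with a single exon and 51.4% with 3 or more exons were SDE up. By chromosome the median LFC went from 0.21 for the 12 members on X to 1.07 for the 26 on chromosome 14.

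**Figure D4:**
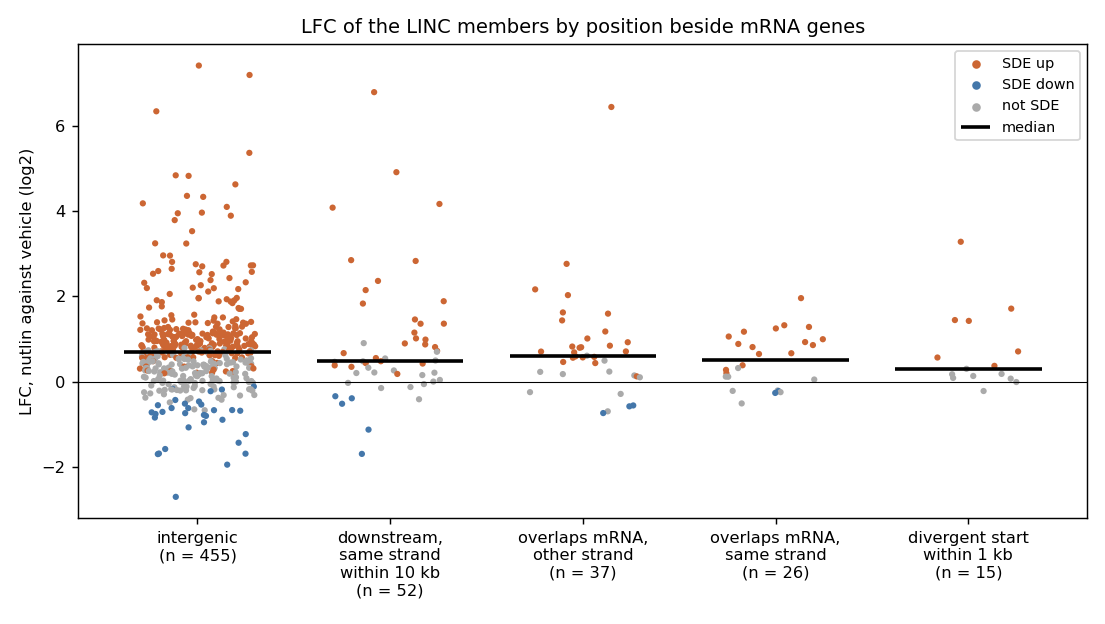
LFC (log2) of each LINC member in 5 classes of position beside mRNA genes, coloured by call, with the class median as a black line (sideways spread is random). Medians are above 0 in every class, from 0.30 for the 15 divergent members to 0.69 for the 455 intergenic ones.

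Members and their nearest mRNAs moved the same way somewhat more often than apart, as other lncRNAs and their neighbours did. For 284 members both the member and the tested mRNA with the nearest start were SDE, and 162 of these pairs (57.0%) moved the same way, against 59.7% of pairs for the other lncRNAs. In 135 pairs both were up, in 27 both were down, in 114 the member was up and the mRNA down, and in 8 the reverse. With starts within 50000 bases, 74 of 121 pairs (61.2%) moved the same way, against 59.6% for the other lncRNAs. The Pearson correlation of LFC across members and their neighbours was 0.22 over 585 pairs and 0.32 over the 236 within 50000 bases, a description only, since genes share libraries and are not replicates. For the 52 downstream members it was 0.54. For the other lncRNAs the Pearson correlation was 0.28 over all, 0.33 within 50000 bases and 0.31 in the downstream class. The Spearman rank correlation in that class was 0.41 for the members and 0.36 for the other lncRNAs. The nearest start was not always that of the gene upstream, as LINC02985 lies downstream of BCL7A but was paired with MLXIP.

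Members beside a strongly rising mRNA were mostly called up. Of the 32 members whose neighbour within 50000 bases was SDE up with an LFC of 1 or more, 23 were SDE up (71.9%) and 0 SDE down, with a median LFC of 0.95. Of the 12 beside a neighbour that was SDE down with an LFC of -1 or less, 7 were SDE up and 2 SDE down. Of the 192 with any other neighbour, 107 (55.7%) were SDE up and 16 SDE down. Both partners were SDE with an absolute LFC of 1 or more in 18 pairs within 50000 bases, of which 14 rose together, 1 fell together and 3 moved apart. These 15 of 18 in the same direction stood beside 187 of 223 such pairs for the other lncRNAs. Since 172 members rose and 11 fell by this much, a high share of pairs up says little about neighbours.

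Among the pairs that rose together, those of LINC02816 with KIAA1614 and of LINC01686 with RGS16 had the highest CPM on the mRNA side. LINC01686 (chr1:182615254-182616629, single exon) starts 10865 bases from RGS16, a regulator of G-protein signalling, in head-to-head orientation. It had 0, 0 and 0.138 CPM as the lowest, median and highest vehicle values and 0.878, 1.32 and 1.92 CPM in nutlin, with no overlap and an LFC of 4.84 (SE 0.36). RGS16 itself went from 7.27 to 69.4 CPM, with an LFC of 3.25 (SE 0.069). LINC02816 (chr1:180906651-180909166) rose from a median of 2.09 to 11.9 CPM without overlap, with an LFC of 2.52 (SE 0.12), and KIAA1614, 6246 bases downstream, from 20.7 to 97.2 CPM with an LFC of 2.23 (SE 0.066).

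LINC01376 lies downstream of OSR1 on the same strand, with starts 10556 bases apart. OSR1, a zinc-finger factor of embryonic development, had 2 counts over the vehicle samples and 71 over the nutlin samples, a ratio of 34.6 (95% counting interval 9.23 to 291). With a nutlin mean of 0.456 CPM it stayed far below the 37.4 CPM of LINC01376 in the same samples. LINC02138 and LINC00304, 2138 bases apart on chromosome 16, rose with an LFC of 4.08 and 1.25 and share CDH15, a cadherin gene, as nearest mRNA (LFC 1.23, SE 0.51). CDH15 was scarce, with means of 0.0998 CPM in vehicle and 0.242 CPM in nutlin and overlapping groups (edgeR adjusted p = 0.0411). LINC00304 overlaps an mRNA gene on the same strand, so it is not free-standing beside CDH15. LINC02138 also lies within 10000 bases downstream of ACSF3 on the same strand. ACSF3 rose from a mean of 22.7 to 37.6 CPM (LFC 0.73, edgeR adjusted p = 1.33e-14). LINC02688 rose beside the mucin gene MUC6 (LFC 2.72 and 2.76), LINC00940 beside CACNA2D4, a calcium channel subunit (LFC of the mRNA 2.49), and LINC02982 beside NKD2, an inhibitor of Wnt signalling (LFC 1.10 and 1.64). LINC00940 had 3 counts over the vehicle samples against 77, a ratio of 25.02 (95% counting interval 8.25 to 124). LINC03025 and FOXD4L3 (LFC 1.32 and 1.55) and LINC00960 and FRG2C (LFC 1.43 and 2.24) also rose together, with the caution that LINC03025 shares 60.2% of its words with other genes. Both mRNAs were scarce and had overlapping groups. FOXD4L3 went from a mean of 0.200 to 0.611 CPM (SE of the LFC 0.47) and FRG2C from 0.0255 to 0.154 CPM (SE 0.68). LINC00960 overlaps ZNF717 on the opposite strand, where the caution on strand given for LINC01054 holds as well. ZNF717 rose from a mean of 5.09 to 7.81 CPM (LFC 0.62). LINC03025 also overlaps PGM5 on the same strand, which had an LFC of 1.32 as well, and it lost its call with lncRNA-only scaling (edgeR adjusted p = 0.0804) and with the replicate block (edgeR adjusted p = 0.0608).

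The 1 pair that fell together was LINC01833 and SIX3, a homeobox gene of forebrain and eye, 2503 bases apart and head to head. LINC01833 had 0.162 to 0.876 CPM in vehicle and 0.0617 to 0.274 CPM in nutlin, groups that overlapped, with an LFC of -1.70 (SE 0.32, edgeR adjusted p = 3.53e-05), and SIX3 fell from 7.36 to 2.58 CPM with an LFC of -1.51. In the 3 discordant pairs the member rose and the mRNA fell. LINC00324 (1.46 to 2.17 CPM in vehicle, 3.61 to 5.84 CPM in nutlin, LFC 1.46) lies beside AURKB, a mitotic kinase gene that fell from 168.6 to 26.1 CPM (LFC -2.69). LINC00324 also lies within 10000 bases downstream of another mRNA gene on its own strand. LINC01795 stands beside FANCL, a ubiquitin ligase gene of the Fanconi anaemia pathway (LFC 1.05 and -1.54), and LINC02044 beside BOC, a co-receptor of Hedgehog signalling (LFC 1.063 and -1.11).

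Members also lay next to each other. Of 58 pairs of neighbouring members within 100000 bases, both were SDE in 30, and 26 of these rose together, 1 fell together and 3 moved apart. Since 88.8% of all members called were up, a high share of pairs up says little about neighbours. The clearest was LINC00184 and LINC01132 on chromosome 1, 89262 bases apart, with an LFC of 3.53 and 2.81 and no overlap of the groups in either. On chromosome 14, LINC01629, LINC02288 and LINC02289 rose together. LINC02288 had an LFC of 1.71 and LINC02289 of 2.81, and LINC01629 had 1 count over the vehicle samples against 185 over the nutlin samples, a ratio of 180.3 with a 95% counting interval of 32.0 to 7161.

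Of 14 LINC genes often studied in cancer, 10 were members, with a median LFC of 0.43. Of these, 8 were SDE up, beside 57.1% of all members and 32.3% of all genes, 1 was SDE down (LINC01116) and 1 did not pass (LINC01234). With lncRNA-only scaling LINC00963, LINC00662 and LINC00958 were SDE up and the other 5 were not. LINC00963 (8.18 to 10.7 CPM in vehicle, 22.7 to 28.3 CPM in nutlin) and LINC00662 (12.7 to 17.0 and 32.7 to 41.2 CPM) had no overlap and an LFC of 1.38 and 1.26. LINC00958, LINC00511 and LINC01088 had overlapping groups and an LFC of 1.36, 0.67 and 0.43, and with lncRNA-only scaling LINC00511 and LINC01088 were at 0.24 and 0.0067 and no longer passed (edgeR adjusted p = 0.117 and 0.978). LINC00665, LINC00839 and LINC00467 had an LFC of 0.18, 0.19 and 0.42, which turned to -0.25, -0.24 and -0.0044 with lncRNA-only scaling, where the first 2 were SDE down (edgeR adjusted p = 0.000249 and 0.00306). LINC00467 also lost its call with the effective length offset (edgeR adjusted p = 0.296) and with the replicate block (edgeR adjusted p = 0.120). LINC01234 had an LFC of -0.06 (SE 0.061, edgeR adjusted p = 0.393), and with lncRNA-only scaling it was SDE down, with an LFC of -0.49 (edgeR adjusted p = 3.51e-08). LINC01088 starts 47 bases from PAQR3 in divergent orientation, and PAQR3 fell with an LFC of -0.69.

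Of 5 LINC genes listed for neural tissue, 2 were members. LINC00632, the X-linked host transcript of the circular RNA CDR1as, had 5.64, 7.14 and 8.65 CPM as the lowest, median and highest vehicle values and 13.98, 16.2 and 19.6 CPM in nutlin. The groups did not overlap, and the LFC was 1.23 (SE 0.073, edgeR adjusted p = 3.91e-15). LINC01551 was at or below 0.564 CPM in all samples and had an LFC of 0.32 (SE 0.36, edgeR adjusted p = 0.469), so no difference was detected.

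Sequence shared with other genes limits some members. kallisto matches reads by 31-base words, and the median member shared 4.67% of the words of its transcripts with transcripts of other genes on either strand. More than 50% was shared by 21 members, whose counts are uncertain. Of these, 13 were SDE up and 2 SDE down, beside 57.1% and 7.18% of all members. LINC02303, LINC02846 and LINC01686 shared none, and LINC01376 shared 5.95%.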

How the data were processed

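RNA-seq of NGP cells was taken from the 20 deposited per-sample files, with condition and replicate number from the labels. Per the labels the authors used kallisto 0.42.4 on hg38, and their methods name an Ensembl release 85 index. The strand setting is not given in the sources used here. The authors deposited estimated counts per transcript with no normalization, TPM (scaled by length and depth) and effective lengths, which are in bases. Of 198968 transcripts, 191106 matched GENCODE release 44 (Ensembl release 110), while 7862 did not and were dropped. Counts were summed per gene and rounded, and a gene needed a total of 1 count in vehicle and 1 in nutlin to be tested with edgeR 4.0.16 (quasi-likelihood F-test, TMM, condition only, Benjamini-Hochberg over 27697 genes) in R 4.3.3. The SE is the absolute LFC divided by the square root of F. CPM used TMM library sizes. At the depths given above, 0.25 CPM is a few read pairs per sample. The test was checked on simulated data.

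Named members were the 8 highest by TPM, the 8 largest rises and 8 largest falls among SDE members at 1 CPM or more without overlap, up to 8 pairs within 50000 bases of an mRNA, and members on the lists. Some neighbouring genes and a gene list are not reported here. The members and lists were chosen with earlier results of these data known. Intervals and floors cover counting error only. Alternatives used DESeq2 1.42.0, limma 3.58.1, other filters, scalings and member rules, a block by replicate number and an offset for effective length. Tables and plots used Python 3.11.15, pandas 2.3.3, scipy 1.17.1 and matplotlib 3.10.9.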

Additional observations from a re-analysis of the deposited data

Results flagged for a closer look

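Among the 40 named members, 75 sets of 10 values were searched for a sample set apart from the rest, by the gap to the nearest other sample as a share of the range, and 5 were found, all of them high. Chance alone marks about 1 set in 20. LINC02607 had 89.1 CPM in vehicle replicate 4, with the next value at 77.8 CPM. LINC01376 had 0.812 CPM in vehicle replicate 11, with the next at 0.461 CPM. LINC00467 had 2.26 CPM in vehicle replicate 6, with the next at 1.64 CPM. LINC01410 had 29.4 CPM in nutlin replicate 4, with the next at 25.1 CPM. LINC00963 had 28.3 CPM in nutlin replicate 2, with the next at 25.6 CPM. The 5 values came from 5 different libraries.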

How the results depend on the processing

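The number of members SDE up stayed within 1.5 times of 334 under DESeq2 size factors (353), the DESeq2 Wald test and limma voom (344 each), the effective length offset (306), filterByExpr (224 of 318 members), 1% FDR (283), members overlapping no mRNA gene (294 of 522) and library totals (402). It moved to 182 with lncRNAs only and to 167 of 247 members under a 1 CPM limit. The number SDE down moved from 42 to 26 with filterByExpr, 24 with library totals, 100 with lncRNAs only and 26 under the 1 CPM limit, and 2 of these alternatives keep fewer members. The median LFC of 0.66 moved to 0.72 with the DESeq2 Wald test, 0.71 with DESeq2 size factors, 0.85 with library totals and 0.24 with lncRNAs only. The share of same-direction neighbours stayed between 54.9% and 61.2%. The cause of the other moves was not tested.

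With lncRNAs only, the LFC reversed for LINC02607 (-0.18), LINC01976 (-0.41), LINC01410 (-0.19), LINC00665 (-0.25), LINC00839 (-0.24), LINC00467 (-0.0044) and LINC01551 (-0.10). LINC01976 reversed to -0.0079 with the effective length offset, and LINC01234 to 0.014 with filterByExpr and 0.12 with library totals. Of 396 LFC values of named members under alternatives, 375 kept direction and side of the threshold.

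The replicate numbers shared by the groups (8 numbers, 16 samples) did not mark pairs, with correlations of deviations from -0.04 to 0.07 and 1 of 8 samples closest to its own number. With the replicate block, 301 members were SDE up and 32 SDE down, against 312 and 37 for the same 16 samples without it. Library totals, the 16 samples without the block and the fit with at least 1 count over the 20 samples (343 up, 40 down) were added after the data were seen. Larger differences went without a call at low levels, as members below 1 CPM that did not pass had an LFC between -0.70 and 0.90, against -0.06 to 0.01 at 16 CPM or more. The median biological coefficient of variation was 0.229 in the first class and 0.0717 in the second, and the parts of depth and of variation between replicates were not tested.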
